A study of Schizosaccharomyces pombe
Saccharomyces cerevisiae with 16 samples.

Results

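Newly synthesized RNA was measured after depletion of Med14, a subunit of the Mediator complex, in the budding yeast Saccharomyces cerevisiae. The comparison takes every newly synthesized RNA library of the Med14 degron strain, 2 given auxin and 2 given the solvent DMSO, so 4 of the 16 libraries of the study. The table lists 6859 genes, of which 6072 had enough reads to be tested. Mediator bridges the activators bound upstream of a gene and RNA polymerase II at its promoter, and it helps the polymerase and the general transcription factors to assemble there. Med14, encoded by RGR1, is the backbone that joins the head, middle and tail modules. RNA made during a short pulse of 4-thiouracil (4tU), a uracil analogue that cells build into RNA, can be purified, and its amount reads out recent synthesis more directly than total RNA does.

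All 4 cultures were MATalpha haploid cells that lacked working ADE2, HIS3, LEU2, LYS2, MET15, TRP1 and URA3 genes. They carried OsTIR1, a rice F-box protein, under the GPD1 promoter, and MED14-3V5-IAA7-kanMX6, in which the endogenous gene ends in an IAA7 degron. OsTIR1 binds the degron when auxin is present, and the tagged protein is then degraded. Mid-log cultures in YPD at 30 °C received 500 µM auxin (3-indole acetic acid) or DMSO for 30 min and then 5 mM 4tU for 6 min, and no strain without a degron was among the groups. Cells of the fission yeast Schizosaccharomyces pombe were added at 3 parts to 1 part of S. cerevisiae before the RNA was extracted. Values are the authors' normalized counts, raw read counts times a constant per library (1.80 and 1.26 for DMSO 1 and 2, 0.579 and 0.657 for auxin 1 and 2). The tagged line is a single strain, and nothing in the labels tells whether its 2 replicates per treatment were grown on separate days. The p-values thus measure the spread between replicate cultures. That spread was estimated together with the cultures of a degron strain for Med17, described below, and not from the Med14 strain alone.

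Mating-type and deletion markers were as labelled, with the exceptions given here. The alpha-cell genes MF(ALPHA)1, YGL089C, STE3 and SAG1 summed to 28643 and 51911 raw counts in DMSO. The 6 a-cell genes examined summed to 315 and 529, with the pheromone gene YDR461W at 2 and 9. Of the deleted genes, HIS3 (YOR202W) held 0 raw counts in all 4 libraries, although the genotype also names a HIS3 marker, and LYS2 (YBR115C), MET17 (the MET15 locus) and ADE2 (YOR128C) held at most 2. TRP1 (YDR007W) held 18 and 13 in DMSO and 2 and 1 with auxin. LEU2 and URA3 were not analysed here. The degron acts on the protein, so the RNA of RGR1 does not check the depletion. RGR1 (YLR071C, chromosome XII, 275378 to 278626, sacCer3) had 3677 and 4235 normalized counts in DMSO and 1588 and 1708 with auxin. Both auxin libraries lay below both DMSO libraries, a log2 fold change of -1.26 (standard error, SE, 0.144; adjusted p = 1.39e-07, edgeR).

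Newly synthesized RNA fell across almost the whole genome. Summed over all genes, the normalized counts were 17.1 M and 17.7 M in DMSO and 3.96 M and 4.21 M with auxin, so 23.5% was left, and 23.3% without tRNA, rRNA, long RNA polymerase III and mitochondrial genes. Of the 6072 genes tested, 5720 (94.2%) were called lower and 34 (0.56%) were called higher, with adjusted p-values below 0.05 (edgeR quasi-likelihood F test, Benjamini-Hochberg). The median gene changed by -1.86 on the log2 scale, which leaves 27.6%. The loss was unequal: the lower quartile kept 20.3% and the upper quartile 35.6%, while 45 genes kept less than 6.25% and 298 kept between 50% and 100%. The 4 libraries gave one picture in this respect, since 5804 genes had both auxin libraries below both DMSO libraries and 73 had both above. The libraries numbered 2 carry an additional (2) in their labels in both treatments, and the amount left was 23.1% between the libraries numbered 1 and 23.9% between those numbered 2. In bulk cultures, fewer cells and less RNA per cell cannot be told apart.

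How far the median gene fell depends on the scaling. The sources used here do not say where the authors' constants come from. Scaled to SCR1 and RPR1, a pair of long transcripts of RNA polymerase III, the median was -0.89 with 3038 genes lower and 132 higher. SCR1 itself moved on the authors' scale and was uneven between the auxin libraries, as given below. Scaled to the mitochondrial genome it was -2.0. TMM scaling, which sets the bulk of genes to no change, gave a median of 0.02, a shift of the scale by about the whole loss. TMM therefore tells which genes lost more or less than the bulk: 1478 of 6082 genes (24.3%) were lower and 1517 (24.9%) higher in that sense. Below, "fell" and log2 fold changes refer to the authors' scale, and "relative to the bulk" refers to TMM, on which many of the genes named as falling least have positive values. Where all or nearly all members of a group are said to have fallen, 94.2% of all genes tested did so too. Counts of group members relative to the bulk stand against the shares of 24.3% and 24.9%.

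**Figure D1:**
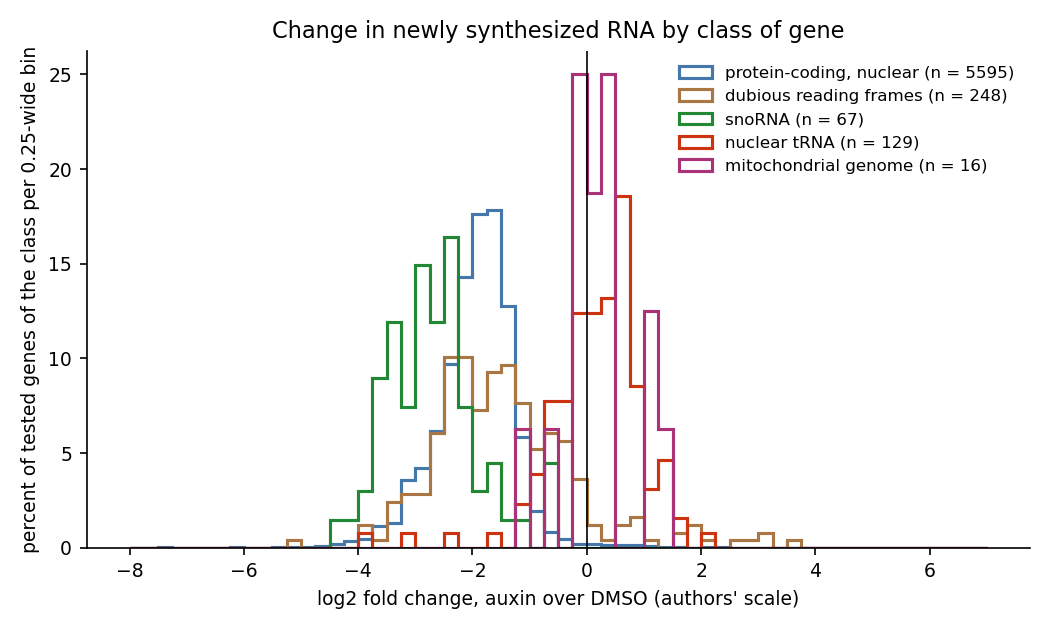
Histogram of log2 fold changes (auxin over DMSO, x axis) as the percent of tested genes of a class in each bin (y axis), for nuclear protein-coding genes, dubious reading frames, snoRNA, nuclear tRNA and mitochondrial genes. Protein-coding genes centre at -1.88 and snoRNA genes at -2.75, while tRNA and mitochondrial genes centre at 0.28 and 0.19.

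Gene groups of Mediator and of the transcription machinery had medians above that of all genes. All 29 tested genes that the deposited annotation places in Mediator fell, with a median of -1.56 against -1.86 for all genes, and relative to the bulk 1 was lower and 10 higher. GAL11, the activator-binding tail subunit Med15, had 4374 and 4604 normalized counts in DMSO and 1627 and 1480.4 with auxin (-1.53), and SIN4, the tail subunit Med16, changed by -1.21. SRB4, the head subunit Med17, had 1874 and 2265 normalized counts in DMSO and 722 and 735 with auxin, with no overlap between the groups (-1.51, SE 0.145). The Mediator gene YMR112C stood lowest at -2.57. All 12 core subunit genes of RNA polymerase II fell (median -1.59), from RPB11 at -2.22 to RPB4 at -1.19, and the genes of its largest subunits, RPO21 and RPB2, changed by -1.58 and -1.36.

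TFIID, the general factor that carries the TATA-binding protein, had a smaller median loss than Mediator, RNA polymerase II, TFIIH, SAGA or the elongation genes. Its 15 genes all fell, with a median of -1.33, and relative to the bulk 8 were higher and 0 lower. TAF5, a scaffold subunit of TFIID, had 3641 and 3643 normalized counts in DMSO and 1655 and 1696 with auxin, so 46% was left. TAF12 changed by -1.06 and TAF11 by -0.95, and TAF13 fell most of them at -2.15. The 11 genes of TFIIH, whose helicases open the promoter, had a median of -1.49, with the helicase genes SSL2 at -1.04 and RAD3 at -0.94. The coactivator SAGA had 21 genes with a median of -1.58, from ADA2 at -2.23 to TAF12. Transcription elongation genes showed the same: all 54 fell, and relative to the bulk 28 were higher and 1 lower. HPR1, of the THO complex that couples transcription to export, was the least lowered of them at -0.96, and the topoisomerase gene TOP1 the most at -2.27.

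Genes of sequence-specific activators were spread more widely. Of 59, 58 fell (median -1.65), and relative to the bulk 13 were lower and 22 higher. GAL4, the activator of the galactose genes, had 318 and 383 normalized counts in DMSO and 27.8 and 29.6 with auxin. It fell by more than any other activator gene of the group, with a log2 fold change of -3.61 (SE 0.226). HAP1, the heme-responsive activator, fell nearly as far, from 9792 and 9891 to 845 and 864 (-3.53). RPN4, the activator of proteasome genes, changed by -1.93, close to the median gene. Among 19 repressor genes, all of which fell, the glucose repressor gene MIG2 stood lowest at -2.93.

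The 20 genes that fell most, among called genes with a mean raw count of at least 50 and one direction in both replicate numbers, included enzymes of amino acid breakdown, the alpha pheromones, cell wall genes and a histone gene. YDR380W, which encodes phenylpyruvate decarboxylase (chromosome IV, 1234218 to 1236125), had 2772 and 3127 normalized counts in DMSO and 44 and 35.5 with auxin. Only 1.36% was left, the lowest of this set (-6.21, SE 0.265; adjusted p = 1.06e-11, edgeR). YHR137W, the aromatic aminotransferase that acts before it in the breakdown of aromatic amino acids, changed by -4.94. The arginine breakdown genes fell alongside: CAR1 (arginase) had 2383 and 2222 normalized counts in DMSO and 112 and 143 with auxin, and CAR2 (ornithine transaminase) had 3506 and 3378 normalized counts in DMSO and 155 and 135 with auxin. The groups were far apart for both genes, with log2 fold changes of -4.18 and -4.57.

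The alpha-factor genes were among the most abundant of the strongly lowered genes. YGL089C (chromosome VII, 344791 to 345153) had 9907 and 8666 normalized counts in DMSO and 221 and 192 with auxin, which leaves 2.23%, and MF(ALPHA)1 had 23655 and 34369 normalized counts in DMSO and 1425 and 1641 with auxin (-4.24). The other alpha-cell genes went the same way, STE3, the receptor for a-factor, by -4.02 and SAG1, alpha-agglutinin, by -3.57. The receptor gene of the opposite mating type, YFL026W, had 111 and 169 normalized counts in DMSO and 79.4 and 92 with auxin and changed by -0.73, but it no longer passed the test when DMSO replicate 2 (-0.38) or auxin replicate 1 (-0.63) was left out. Over all 24 tested genes of pheromone signalling the median was -2.04, with 7 lower and 1 higher relative to the bulk, where 24.3% and 24.9% of all genes were.

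The remaining genes of the 20 had log2 fold changes between -4.73 and -4.15. Abundant ones were YDR033W, a plasma membrane protein (33189 and 41389 in DMSO, 1304 and 1502 with auxin), GAS1, the glucan-remodelling enzyme of the cell wall (40092 and 46207, 2275 and 2330.3), and YHR143W, a protein secreted by daughter cells (5815 and 7389, 344 and 331). A pair of reductase genes, YOL151W and YNL134C, changed by -4.26 and -4.16, and their DMSO libraries were uneven (11149.6 and 5779.6 for the former, 24080.3 and 11365 for the latter). The stress gene HSP12, the meiotic telomere gene NDJ1, the meiotic gene YDR506C and the pre-rRNA processing gene YCR018C had few reads with auxin, HSP12 for example 46.3 and 31.5 normalized counts. YCR018C had 711 and 932 normalized counts in DMSO and 31.9 and 31.5 with auxin. The poorly characterised YBL043W (-4.69), YKR041W (-4.45) and YCR006C (-4.43) also had few reads with auxin, YBL043W for example 8.69 and 8.54 normalized counts. The other 2 of the 20 were the U3 snoRNA gene SNR17B and the histone H3 gene YNL031C, described below.

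Genes of the translation apparatus differed: ribosomal protein genes had medians well below that of all genes, and most groups of ribosome assembly genes had medians above it. All 83 large-subunit and all 66 small-subunit genes fell, with medians of -2.94 and -2.98, so about 13.0% and 12.6% was left. Relative to the bulk, 76 and 57 were lower and 0 and 1 higher. RPL10, of the 60S subunit, had 28953 and 26279 normalized counts in DMSO and 3299 and 3903 with auxin (-2.94), and RPL3 changed by -2.49. RPS15 was the lowest small-subunit gene at -3.41. YMR188C, at -1.14, encodes a mitochondrial ribosomal protein that the annotation also lists with the cytosolic subunit. Of 137 ribosomal protein genes recognised by their names alone, all fell (median -2.98). Relative to the bulk 134 of these were lower and 0 higher.

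Most ribosomal proteins are encoded by a pair of paralogs, and the copies could part. Of 59 pairs with both copies tested, 10 differed by more than 0.5 in their log2 fold changes. RPL15A changed by -2.74 and RPL15B, the minor copy, by -1.56. RPL31B, the lowest of all ribosomal protein genes, changed by -3.83 against -2.88 for RPL31A. RPS22A had 10859 and 12758 normalized counts in DMSO and 1021 and 1298 with auxin, while RPS22B had 3024 and 3933 normalized counts in DMSO and 593 and 625 with auxin. The copies share sequence, so reads could be assigned to either, and the differences between copies were not tested.

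The 52 tested genes of the small-subunit processome, which folds and cuts the 18S rRNA precursor, all fell, with a median of -1.56 that leaves 33.8%. Relative to the bulk 11 were lower and 25 higher. YMR229C, an rRNA processing factor and the most abundant of them, had 24149 and 26127 normalized counts in DMSO and 8036 and 8354 with auxin, so 32.6% was left, and YBL004W kept 33.9%. RPS2, a ribosomal protein that belongs to both groups, was the lowest at -3.13, and YDR449C the highest at -0.97. Large-subunit precursor genes had a median of -1.59. Of a hand-written list of 30 ribosome biogenesis genes, only 8 were matched by name. Those 8 stood at -1.91, with 2 lower and 2 higher relative to the bulk, shares near those of all genes (24.3% and 24.9%). Genes of the mitochondrial ribosome, whose proteins are made in the cytosol, had a median of -1.68 (78 of 78 lower; 2 lower and 24 higher relative to the bulk). Its gene NAM9 had 2738 and 2923 normalized counts in DMSO and 1063 and 1052 with auxin. Elongation factors of translation followed the ribosomal proteins, with a median of -2.82 over 16 genes. YEF3, elongation factor 3, had 153308 and 133009 normalized counts in DMSO and 20321 and 19875 with auxin, and TEF1 and EFB1, which encode subunits of elongation factor 1, changed by -3.19 and -3.70. Initiation factors (-1.95) and aminoacyl-tRNA synthetases (-2.02) lay near the median of all genes.

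The most highly expressed metabolic genes lost most of their new RNA. All 23 tested glycolysis genes fell (median -3.03), and relative to the bulk 19 were lower and 0 higher. PMA1, the plasma membrane proton pump and the gene with the most reads in DMSO, had 159549 and 154607 normalized counts in DMSO and 10087 and 10550.0 with auxin. Its share of all raw counts went from 0.932% and 0.876% to 0.255% and 0.251%. TDH3, glyceraldehyde-3-phosphate dehydrogenase, had 154802 and 132173 normalized counts in DMSO and 14549 and 17060.1 with auxin (-3.18), its paralog TDH1 changed by -4.06, and YLR044C, the major pyruvate decarboxylase, by -3.83. Among the 10 genes with the most normalized counts in DMSO, ENO2, CDC19, FBA1 and ADH1 of glycolysis and fermentation changed by -3.31, -3.36, -3.25 and -3.23, and the chaperone genes SSA2 and HSC82 by -3.19 and -2.67. These 10 genes made up 7.05% and 6.12% of raw counts in DMSO and 2.92% and 2.95% with auxin.

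Other biosynthetic routes differed from each other. All 25 ergosterol synthesis genes fell (median -2.52), with 20 lower and 1 higher relative to the bulk. ERG11, the sterol demethylase that azole drugs inhibit, had 12236 and 13694 normalized counts in DMSO and 1638 and 1809 with auxin, and ERG6, a sterol methyltransferase, was lowest at -3.61. Of 15 purine synthesis genes all fell (median -2.27), and YMR120C, of the last steps to inosine monophosphate, had 809.7 and 843 normalized counts in DMSO and 44 and 53.2 with auxin. Methionine synthesis genes had a smaller median loss, with 21 of 24 lower and a median of -1.58. The methionine synthase gene YER091C kept 33.3%. YGL184C, a cystathionine beta-lyase, had 347 and 309.7 normalized counts in DMSO and 443 and 452 with auxin, and its change of 0.45 did not pass the test (adjusted p = 0.097, edgeR), though it did in a fit over the 4 Med14 libraries alone (adjusted p = 0.031). Hexose transporter genes ran from -2.93 for the low-affinity transporter gene YDR345C to 0.26 for the high-affinity YDR343C, which had 39.5 and 29.1 normalized counts in DMSO and 37.1 and 44 with auxin and did not pass the test. All 8 tested phosphate genes, of 12 listed, fell. PHO84, the phosphate transporter, had 52147 and 48092 normalized counts in DMSO and 3681 and 3327 with auxin (-3.84). The drug pump gene PDR5 changed by -3.93.

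Cell wall genes spread widely, with quartiles of -3.20 and -1.96 against -2.30 and -1.49 for all genes. By their quartiles the stress groups did not (-2.61 and -1.81 for oxidative stress, -2.35 and -1.61 for heat), though single members lay far out. Of 91 cell wall genes 87 fell and 2 rose, the putative spore wall gene YOR214C and the glucan-elongating YLR343W, with a median of -2.75. Relative to the bulk 54 were lower and 15 higher. Genes of the response to oxidative stress all fell (89, median -2.18), and MXR1, which repairs oxidised methionine, lost least. It had 1049 and 1297 normalized counts in DMSO and 606 and 912 with auxin, and its change of -0.63 lost its call without auxin replicate 1 (-0.36). Of 32 heat response genes 29 fell and 1 rose (median -1.95). HSP12, a membrane-protecting heat shock protein, had 871 and 719 normalized counts in DMSO and 46.3 and 31.5 with auxin, while the small heat shock protein gene YBR072W had 671 and 673 normalized counts in DMSO and 1037 and 1400.3 with auxin. YBR072W thus rose, by 0.86 (SE 0.216; adjusted p = 0.00104, edgeR), with both auxin libraries above both DMSO libraries. Its call was lost without both libraries numbered 2 (0.63, adjusted p = 0.0703), on mitochondrial scaling it was 0.69, and relative to the bulk it was 2.72. All 47 proteasome genes fell, with a median of -1.65 that leaves 31.9%, from YBR082C, a ubiquitin-conjugating enzyme, at -2.43 to the deubiquitinase gene DOA4 at -1.23. RPN1, of the proteasome base, changed by -1.65.

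**Figure D2:**
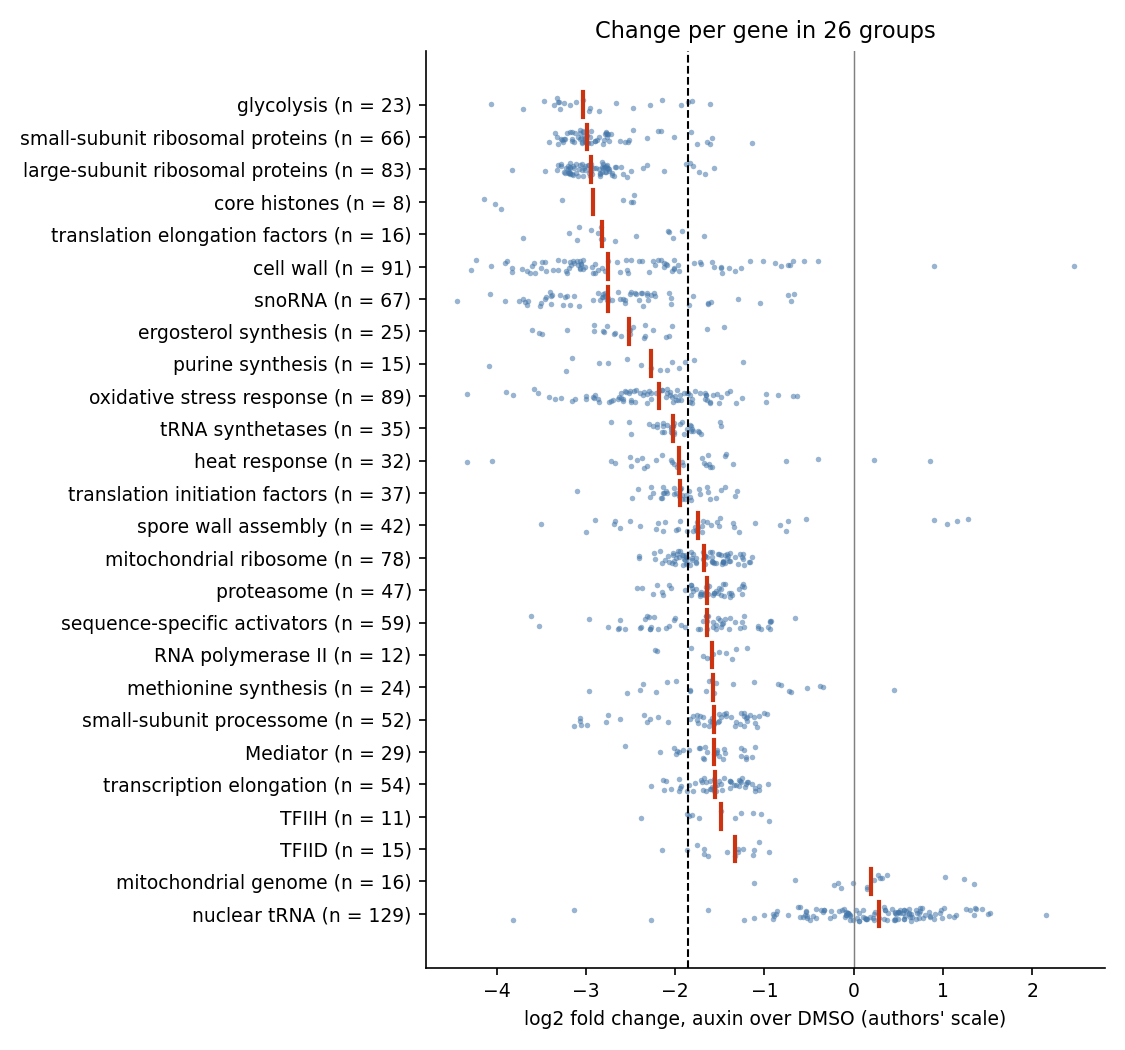
Log2 fold change (auxin over DMSO, x axis) of every tested gene (points) in 26 groups ordered by their median (red bar), with the median of all genes, -1.86, as a dashed line. Glycolysis and ribosomal protein genes lie mostly left of the line, TFIID, TFIIH and processome genes mostly right of it, and tRNA and mitochondrial genes around 0.

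Cell cycle genes were mixed, and the histone genes split by locus. The 22 G2/M genes had a median of -1.77, yet ran from CLB1, a mitotic cyclin, with 2835 and 2720.4 normalized counts in DMSO and 211 and 138 with auxin (-3.99), to PIN4 at -1.02. Yeast encodes each core histone at a pair of loci, where H3 is paired with H4 and H2A with H2B. All 8 core histone genes fell. YNL031C (H3) and YNL030W (H4), which lie next to each other on chromosome XIV, were alike in level. YNL031C had 13040.2 and 14122 normalized counts in DMSO and 708 and 826 with auxin, and YNL030W had 14444 and 13038 normalized counts in DMSO and 805 and 971 with auxin. Their counterparts on chromosome II, HHT1 (H3) and YBR009C (H4), kept more. HHT1 had 12586 and 16945 normalized counts in DMSO and 2245 and 2989 with auxin, and YBR009C had 12464 and 13811 normalized counts in DMSO and 2033 and 2337 with auxin. The levels in DMSO overlapped, while with auxin every value of the chromosome XIV genes was below every value of their counterparts. The log2 fold changes were -4.15 and -3.95 at the former locus and -2.50 and -2.59 at the latter. For H2A and H2B, HTA2 and YBL002W changed by -3.27 and -4.02, and HTA1 and HTB1 by -2.47 and -2.46. The histone genes were looked at one by one after their values were seen, the copies share sequence, and the differences between loci were not tested.

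Small nucleolar RNAs, which RNA polymerase II makes in yeast and which guide rRNA modification and cleavage, fell with the ribosomal protein genes. Of 67 tested genes 65 fell (median -2.75), with medians of -2.49 for C/D box and -2.80 for H/ACA box genes. Relative to the bulk 41 were lower and 3 higher. U3, needed for 18S rRNA cleavage, has a pair of gene copies. SNR17A had 14857 and 12049 normalized counts in DMSO and 747 and 1601 with auxin, and SNR17B had 5230.1 and 3921 normalized counts in DMSO and 159.9 and 261 with auxin. Both copies fell in both libraries (-3.52 and -4.44), but auxin replicate 2 was higher than replicate 1, and snR37, an H/ACA guide, showed the same at 1682 and 4162 with auxin against 13972 and 17003 in DMSO. The spliceosomal RNAs U4 (SNR14), U1 (SNR19) and U2 (LSR1) changed by -3.58, -2.93 and -2.38.

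**Figure D3:**
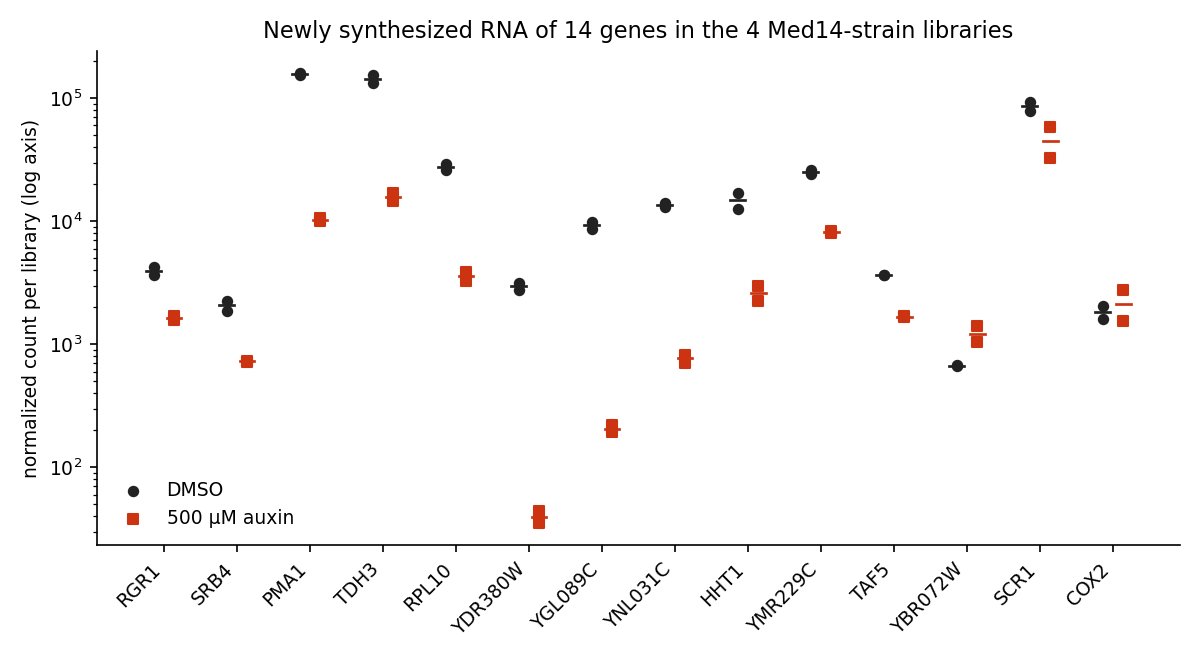
Normalized counts (y axis, log scale) of 14 genes in the DMSO libraries (black circles) and auxin libraries (red squares), with a line at each mean of 2. The groups are apart for every gene shown except COX2, and YBR072W is the only one shown whose auxin libraries are the higher.

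Transcripts of other polymerases behaved differently from those of RNA polymerase II. Of 129 tested nuclear tRNA genes, 5 fell and 8 rose, with a median of 0.28 that was -0.02 with mitochondrial scaling and 1.13 with SCR1 and RPR1 scaling, where 3 of 132 were lower and 52 higher. The sign of the median turned with the replicate number, from -0.39 between the libraries numbered 1 to 0.73 between those numbered 2. Another 130 had too few reads to test, and all tRNA genes together held 0.0143% and 0.0164% of raw counts in DMSO and 0.0492% and 0.103% with auxin. SCR1, the RNA part of the particle that targets secreted proteins, had 93641 and 79267 normalized counts in DMSO and 32523 and 57818 with auxin. It fell, with a log2 fold change of -0.94 (SE 0.232), with auxin replicate 2 well above replicate 1. RPR1, the RNA of RNase P, had 13588 and 10638 normalized counts in DMSO and 6256 and 9399 with auxin, and its change of -0.63 lost its call without DMSO replicate 1 (-0.44) or without auxin replicate 1 (-0.37). snR52, a snoRNA that RNA polymerase III makes, had 752 and 529.7 normalized counts in DMSO and 297 and 636 with auxin, so its groups overlapped (-0.46, adjusted p = 0.14, edgeR). It was called lower without auxin replicate 2 (-1.11), without both libraries numbered 2 (-1.34) and with mitochondrial scaling (-0.69). U6 (SNR6) had at most 15.2 normalized counts. None of these 4 fell relative to the bulk, where they lay between 0.91 and 1.72.

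The mitochondrial genome has a polymerase of its own. Of its 42 genes 16 were tested, none fell and 1 rose, with a median of 0.19. That median was -0.32 between the libraries numbered 1 and 1.24 between those numbered 2, and with SCR1 and RPR1 scaling it was 1.11, with 10 of 16 higher. COX2, of cytochrome c oxidase, had 1614 and 2049 normalized counts in DMSO and 1539.6 and 2747 with auxin, and COX1 had 1666 and 1265 normalized counts in DMSO and 1443 and 2133 with auxin. In both, auxin replicate 2 was the highest library, and the changes of 0.22 and 0.29 did not pass the test. Without auxin replicate 1 both passed it, at 0.58 for COX2 and 0.54 for COX1. The one riser, 15S_RRNA, had 19.7 and 10.1 normalized counts in DMSO and 30.7 and 42.7 with auxin (1.35), and did not pass when DMSO replicate 2 was left out (0.89).

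The 34 genes that rose were few and mostly low in reads: 12 had a mean raw count of at least 50. Their number was 64 without auxin replicate 1 and 19 without auxin replicate 2. By type, 12 are reading frames annotated as dubious, 8 are tRNA genes and 1 is mitochondrial, and 7 of the rest are described as acting in sporulation or meiosis. The best counted were SRO77, of exocytosis, with 496 and 564 normalized counts in DMSO and 755 and 792 with auxin (0.54), and YBR072W. With mitochondrial scaling SRO77 did not pass the test (0.41, adjusted p = 0.218). Genes known from spore formation, a programme of diploid cells, were among them. YOR242C, which localises to the spore wall, had 91.6 and 178 normalized counts in DMSO and 269 and 345 with auxin (1.16), YDR523C, a kinase gene of spore wall assembly, had 75.4 and 124 normalized counts in DMSO and 241 and 250.2 with auxin (1.28), and YLR343W, which elongates glucans of that wall, had 127 and 182 normalized counts in DMSO and 273 and 311 with auxin (0.90). In each, both auxin libraries were above both DMSO libraries. SPO21 (0.70) and DIT2 (1.04) lost their calls without DMSO replicate 1 (0.43 and 0.67) or without auxin replicate 2 (0.48 and 0.77). Most genes of these classes fell: of 42 tested spore wall assembly genes 34 fell and 4 rose, and of 46 meiotic recombination genes 40 fell and 0 rose, against 94.2% lower and 0.56% higher over all genes. The flocculin gene MUC1 (FLO11) had 98.7 and 133 normalized counts in DMSO and 204 and 231 with auxin (0.90). PWR1, a noncoding RNA made at the MUC1 promoter, had 0 raw counts in both DMSO libraries and 17 in each auxin library (6.56, SE 1.73). It was tested through libraries in which it was high. ICR1, the noncoding RNA that opposes it there, had 846 and 798 normalized counts in DMSO and 158 and 167 with auxin and fell (log2 fold change -2.33). PWR1 (395999 to 396939) lies within the span of ICR1 (393884 to 397082). The limit on strand given below for dubious frames holds here too, and a link between the 2 changes was not tested. The other risers with at least 50 reads and one direction in both numbers were tT(AGU)C (1.44), tI(AAU)G (1.01) and YER097W (0.70), and the last 2 lost their calls without some 1 library (down to 0.56 and 0.35 without auxin replicate 2). That made 11 genes, so the rule for the 12 highest also names YJR061W, which fell least at -0.40, and whose call was lost without any 1 of the 4 libraries (-0.49 to -0.31).

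Most dubious frames that rose lie across from a gene that fell. Of the 12, 11 overlap a gene on the opposite strand, and all 11 of those genes fell, with log2 fold changes of -3.42 to -1.23, where 94.2% of all genes tested fell. YOR139C went from 2 and 1 raw counts in DMSO to 51 and 49 with auxin, while YOR140W on the other strand changed by -1.65. YOR345C went from 3 and 4 to 68 and 92 across from YOR346W, which changed by -2.06. The count filter asks for enough reads in only 2 of the 8 libraries. Frames with few reads in DMSO, such as YOR139C, could thus be tested through libraries in which they were high. Of 592 dubious frames 248 were tested, so the number of risers rests in part on this filter. Over all 248 tested dubious frames, 160 fell and 12 rose (median -1.61). Of 179 with a tested gene on the opposite strand, the frame lay above that gene in 124, with medians of -1.53 and -1.96. The kit is stranded per the labels, but the sources used here do not give the strand setting of the counting, and whether these reads are antisense RNA was not tested.

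The loss varied with level and length. Nuclear genes outside the tRNA, rRNA and long RNA polymerase III classes (5922) were ranked by normalized count per kb in DMSO and cut into 5 equal classes. The top class had a median of -2.22 and the other 4 had medians of -1.84, -1.80, -1.72 and -1.83 from lowest to highest. In the top class 598 of 1185 genes (50.5%) were lower relative to the bulk, against 23.1% in the class below it. DMSO values enter both the level and the change, and with levels taken from the Med17 strain, which shares no library with the change, the top class stood at -2.20. Length gave an ordered series: from the shortest class (up to 555 bases) to the longest (from 2064 bases) the medians were -2.15, -1.94, -1.86, -1.79 and -1.71. Length and level are linked, and within the top level class the shortest genes had a median of -2.56 and the longest -1.92. In the bottom level class the order was the opposite, -1.77 and -2.01. The 167 genes within 20 kb of a chromosome end (taken as the last gene end in the table) had a median of -2.13 against -1.87 elsewhere, and the 222 genes within 500 bases of a tRNA gene -2.12 against -1.87. By chromosome the medians ran from -2.01 on chromosome V to -1.83 on chromosome IV. These are descriptions without a test, and the promoters were not analysed here.

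**Figure D4:**
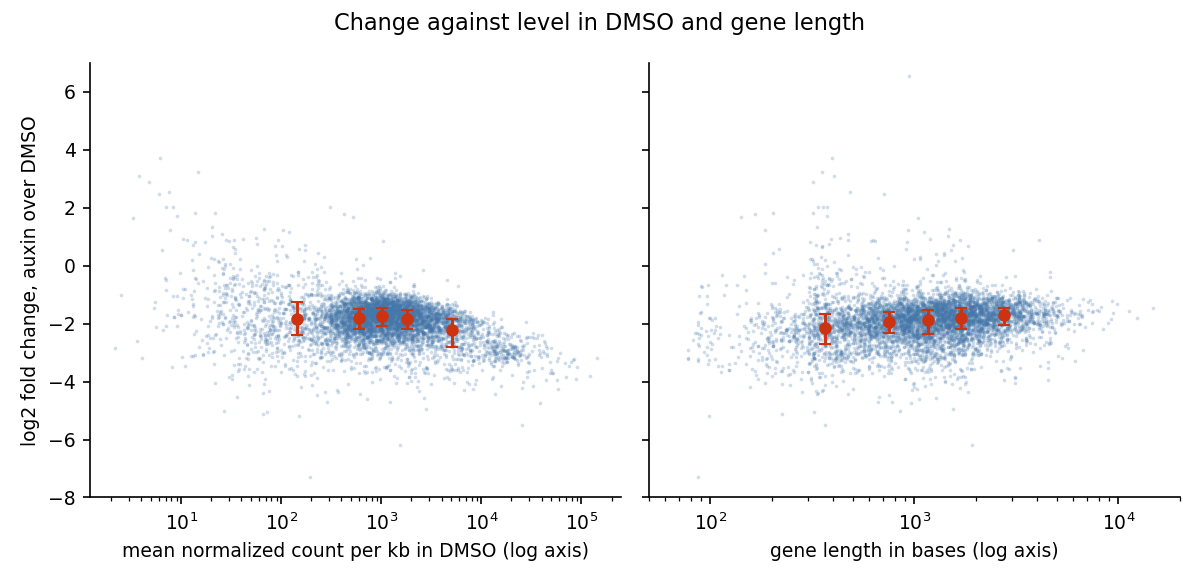
Log2 fold change (auxin over DMSO, y axis) of nuclear genes against the mean normalized count per kb in DMSO (left, log axis) and against gene length in bases (right, log axis). Red points give the median of each of 5 equal classes at the class median, with bars from the lower to the upper quartile, and genes at 0 in DMSO are not on the left axis. The median of the top level class (-2.22) is the lowest of the 5, and the median rises from -2.15 to -1.71 with length.

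The Med17 strain carried a degron on the head subunit Med17 and was treated and labelled in the same way. One label of that strain names MED14, and its strain and source labels were used. The 2 strains were compared in their response to auxin. Protein levels were not examined here, so the subunit, the extent of depletion and the strain cannot be told apart. The difference of the 2 log2 fold changes was tested in the same fit. Of 6072 genes, 3619 (59.6%) were higher and 199 (3.28%) lower in the Med14 strain, with a median difference of 0.82, so on the authors' scale most genes lost less RNA in the Med14 strain. That median depends on the constants of both strains: it was 0.04 with TMM and 1.70 with SCR1 and RPR1 scaling. The count of genes lower was 106 without Med17 auxin replicate 1 and 119 without Med17 DMSO replicate 2.

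The difference fell unevenly over the gene groups. On the authors' scale most ribosomal protein genes were not called different between the strains. Of 83 large-subunit genes 7 were lower and 2 higher, with a median difference of -0.09. Of 66 small-subunit genes 3 were lower and 12 higher, with a median difference of -0.10. These annotation groups hold other entries as well. Of 137 ribosomal protein genes recognised by their names alone, 10 were lower and 6 higher (median difference -0.12). The processome (0.08), RNA polymerase I genes (-0.01) and ergosterol genes (0.13) lay near 0 as well. With TMM, where 18.0% of all genes were lower and 16.8% higher, 73 large-subunit genes were lower and 0 higher, 49 small-subunit genes were lower and 2 higher, and 38 of 52 processome genes were lower. Of the 137 genes recognised by name, 122 were lower and 0 higher with TMM. By contrast 44 of 47 proteasome genes and 71 of 78 mitochondrial ribosomal genes were higher, that is, less lowered, in the Med14 strain (median differences 1.20 and 0.97). With TMM 20 and 17 of them were higher, the latter a share near that of all genes. Among the groups taken from annotation terms, the median difference was largest for methionine synthesis genes at 1.60. Of the hand-written lists, oxidative stress genes of the Yap1 type stood at 2.21 (7 of 9 tested higher). Genes of sulfate assimilation and methionine stood at 1.77 (5 of 7). Genes of transcription elongation (0.99, 48 of 54 higher) and Mediator (0.90, 24 of 29) were near the median of all genes. Relative to the bulk, the median difference was -0.88 for the large-subunit ribosomal genes and 0.42 for the proteasome. Against the bulk, the former thus changed to lower values in the Med14 strain than in the Med17 strain, and the latter to higher ones. For nuclear tRNA genes the sign was the opposite, with 31 of 129 lower and 0 higher in the Med14 strain and a median difference of -1.42.

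**Figure D5:**
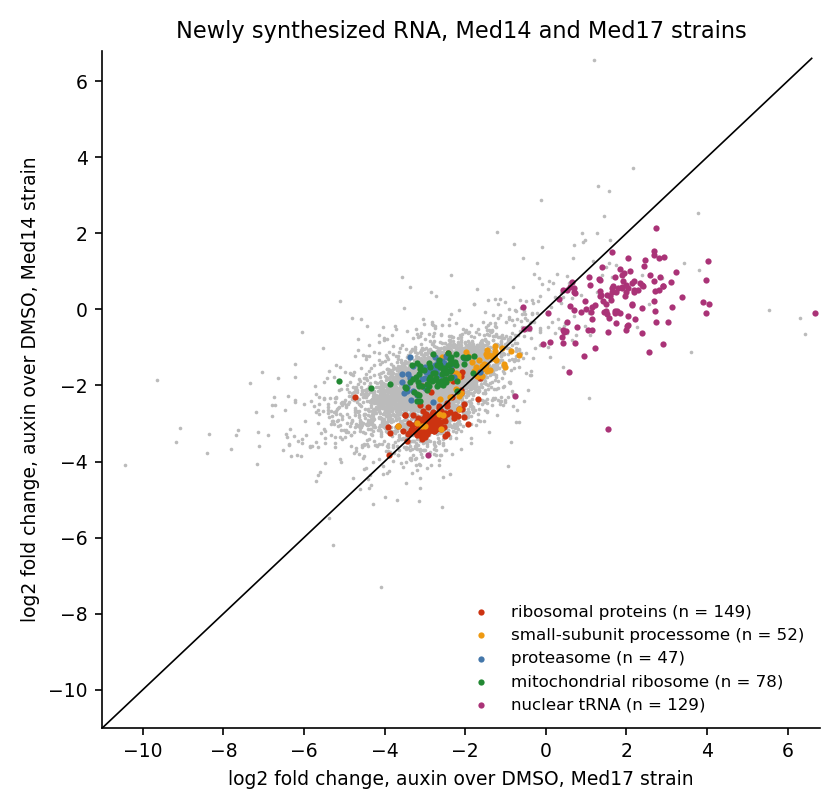
Log2 fold change (auxin over DMSO) of each tested gene in the Med14 strain (y axis) against the Med17 strain (x axis), with the line of equal change and 5 groups coloured. Ribosomal protein and processome genes lie along the line, proteasome and mitochondrial ribosomal genes above it, and tRNA genes mostly below it.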

How the data were processed

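Libraries were made with a TruSeq stranded kit after removal of ribosomal RNA, per the labels' protocols. The submitters' processing notes name bcl2fastq 2.17.1.14 and sacCer3. The sources used here do not name the aligner, the counter, its strand setting or the origin of the scaling constants. Deposited by the authors were raw read counts per gene, and the same counts after normalization, a signal that equals raw counts times 1 constant per library. Raw counts summed to 9.54 M and 14.0 M in DMSO and 6.84 M and 6.41 M with auxin. No S. pombe genes were in the table.

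Groups were taken from the strain, source and treatment labels. Raw counts of the 8 newly synthesized RNA libraries (4 groups of 2) were fitted together in edgeR 4.0.16 (R 4.3.3) with the authors' constants as scaling, filterByExpr and the quasi-likelihood F test, with calls made where the p-value after Benjamini-Hochberg adjustment was below 0.05. SE is the absolute log2 fold change over the square root of F. The procedure was run on simulated data in which few genes changed, up and down alike, and the scaling was known. That setting differs from these data, so the run does not check the scaling. The amount left is given per library and was not tested, since an exact permutation test of 2 libraries against 2 has a smallest p of 0.333. Gene groups came from annotation terms in the deposited table and from hand-written lists, and were described by counts and medians only. The hand-written lists were matched by gene name, which 2228 of the 6859 genes carry, so many listed genes were left out. Genes, groups and lists were chosen with earlier results of these data known. Genes were named by rule: RGR1 and SRB4, the 20 lowest and 12 highest called genes with a mean raw count of at least 50, the most abundant and most extreme of each group, 6 at each end of the strain difference, and the 10 most abundant. Histone and paralog copies and dubious frames were added after their values were seen. Alternatives were TMM, SCR1 with RPR1 and mitochondrial scaling, other count filters, DESeq2 1.42.0, a replicate block and leaving out libraries. Promoter and protein sequences were not analysed here.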

Additional observations from a re-analysis of the deposited data

Results flagged for a closer look

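For 12 genes the change with auxin differed between the strains by the test of the difference itself (edgeR quasi-likelihood F test, Benjamini-Hochberg). They are the 6 lowest and 6 highest differences, Med14 strain minus Med17 strain on the log2 scale, with at least 50 raw counts on average over the 8 libraries and one sign in both replicate numbers.

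All 6 of the highest had higher levels in DMSO in the Med17 strain than in the Med14 strain, so the strains differed before auxin. FRM2, OYE3 and HBN1 had mean raw counts of 15.8, 30.5 and 47.2 over the 4 Med14 libraries and entered only through the Med17 DMSO libraries, so their place among the highest rests on the group in which they are high. FRM2, annotated as a nitroreductase, had 32.3 and 25.3 normalized counts in DMSO and 6.37 and 9.2 with auxin. In the Med17 strain it went from 2278 and 2026 to 3.58 and 1.77, a difference of 7.77. OYE3, an NADPH oxidoreductase, stood at 91.6 and 70.8 before auxin here, against 12582 and 13196 in the other strain, with a difference of 6.36. HBN1 (124 and 99.9 and, in the Med17 strain, 5839 and 5505) differed by 5.95, and YKL071W (241 and 164 and, in the Med17 strain, 9444 and 8813) by 5.67. YBR008C, a drug transporter gene, differed by 5.41, with 1470.5 and 1111 in DMSO in the Med14 strain against 27036 and 24749. HSP30, a stress protein of the plasma membrane, had 513 and 592 normalized counts in DMSO and 564 and 732 with auxin, and its change of 0.23 did not pass the test (adjusted p = 0.223, edgeR). It went from 1774 and 2029 to 63.7 and 47.8 when Med17 was depleted, a difference of 5.33.

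All 6 of the lowest had higher levels in DMSO in the Med14 strain than in the Med17 strain, so here too the strains differed before auxin. Among them were ERG3, a sterol desaturase gene, and YNL141W, the adenine deaminase gene. ERG3 had 7139 and 6874 normalized counts in DMSO and 557 and 683 with auxin. It went from 1817 and 1354 to 956 and 792 when Med17 was depleted, a difference of -2.64. YNL141W had 6201 and 6107 normalized counts in DMSO and 774 and 813 with auxin, against 1411 and 905 and then 736 and 644 in the Med17 strain, a difference of -2.21. The other 4 are made by RNA polymerase III or lie in the mitochondrial genome, and none of them passed the test within the Med14 strain when all 4 libraries were used. With 1 library left out each passed: snR52 at -1.11 and tK(CUU)E1 at -1.37 without auxin replicate 2, tG(GCC)P1 at 1.20 without auxin replicate 1, and Q0255 at 0.65 without DMSO replicate 1. snR52 differed by -2.72, with 124 and 125 and then 744 and 452 in the Med17 strain. The mitochondrial gene Q0255 had 196 and 105 normalized counts in DMSO and 154 and 175 with auxin and differed by -2.42. In the Med17 strain it went from 16.4 and 25.3 to 122 and 131. The tRNA genes tG(GCC)P1 and tK(CUU)E1 differed by -2.30 and -1.95, and their auxin libraries in the Med14 strain were uneven, at 63.7 and 188 and at 31.9 and 124. In DMSO tG(GCC)P1 had 88.0 and 75.8 normalized counts, against 10.9 and 25.3 in the Med17 strain. For tK(CUU)E1 these were 46.7 and 114 against 23.7 and 16.4, so the Med17 levels of both were low.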

How the results depend on the processing

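The direction of the loss held with the authors' constants, mitochondrial scaling and SCR1 with RPR1 scaling, but its size did not. The RNA left was 85.7% with TMM, which presumes that the bulk of genes does not change, 46.3% with SCR1 and RPR1, and 21.4% with mitochondrial scaling. The median change was 0.022 with TMM, -0.89 with SCR1 and RPR1 and -2.0 with mitochondrial scaling. Genes lower were 1478 with TMM and 3038 with SCR1 and RPR1, and genes higher 1517 and 132. The count of genes higher was also 12 with a mean count of at least 50, 19 with DESeq2 and 22 without both libraries numbered 2, and leaving out 1 library gave 19 (without auxin replicate 2) to 64 (without auxin replicate 1). For the strain difference, genes lower were 1092 with TMM, 22 with SCR1 and RPR1 and 71 with mitochondrial scaling, and 106 (without Med17 auxin replicate 1) to 244 without 1 library, with 119 without Med17 DMSO replicate 2. Genes higher were 1023 with TMM, and the median difference was 0.035, 1.70 and 1.02 in that order of scalings. With a replicate block the counts were 5712 lower and 33 higher, and 201 and 3649 for the difference. Deviations of libraries with the same number correlated at 0.43 in the Med14 strain, but 2 numbers do not establish a pairing. The causes of these shifts were not tested, apart from what each scaling sets by construction. With TMM the log2 fold changes of 31 named genes turned positive, namely RGR1 0.60, SRB4 0.36, GAL11 0.34, SIN4 0.66, RPO21 0.29, RPB2 0.51, RPB4 0.67, TAF5 0.75, TAF12 0.81, TAF11 0.92, SSL2 0.82, RAD3 0.92, HPR1 0.91, RPL15B 0.30, YMR188C 0.73, YMR229C 0.25, YBL004W 0.31, YDR449C 0.90, NAM9 0.45, YER091C 0.28, YFL026W 1.1, SCR1 0.91, RPR1 1.22, YJR061W 1.47, YOR140W 0.22, YBR008C 0.22, PIN4 0.85, RPN1 0.21, DOA4 0.64, MXR1 1.23 and GDH2 0.59. With SCR1 and RPR1 scaling 6 did, TAF11 0.021, RAD3 0.031, YFL026W 0.21, RPR1 0.30, YJR061W 0.57 and MXR1 0.27. Each group had 2 libraries, 1 strain and no strain without a degron, and genes with few reads carry wide errors. The planned comparison of promoter sequences was not run.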

Other observations

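Gene groups outside those described above mostly lay near the median of all genes. Where 94.2% of all genes tested fell, all 86 tested secretory genes and all 122 vacuole genes did (medians -1.93 and -1.96). So did all 60 autophagy genes (-1.74), all 31 spliceosome genes (-1.65) and all 53 DNA replication genes (-1.77). RNR2, of the ribonucleotide reductase that makes DNA precursors, stood lowest among the last, with 4239 and 4369 normalized counts in DMSO and 489 and 520.2 with auxin (-3.09). Of 57 peroxisome genes 56 fell, and YHR160C, a peroxisome biogenesis gene and the lowest of them, had few reads, with 16.2 and 29.1 normalized counts in DMSO and 1.16 and 0 with auxin. All 47 nuclear import genes fell (median -1.56), and relative to the bulk 6 were lower and 25 higher, where 24.3% and 24.9% of all genes were.

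Of 33 listed amino acid genes under the activator Gcn4, 8 were matched by name and 7 tested. All 7 fell, with a median of -2.61 that lay below that of all genes, and 5 were lower and 0 higher relative to the bulk. LYS9, of lysine synthesis, stood lowest at -3.21. The 9 tested of 23 listed genes of nitrogen breakdown ran from CAR2 to GDH2, a glutamate dehydrogenase, at -1.28. CYC1, cytochrome c, had 1381 and 1421 normalized counts in DMSO and 127 and 139 with auxin (-3.40). The 16 tested of 33 listed respiration genes had a median of -1.96.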
